A study of Homo sapiens with 9 samples.

Results

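The enzymes described here are the 9 that carry lanosterol, the first sterol of the pathway, to the cholesterol ring system: CYP51A1, TM7SF2, LBR, MSMO1, NSDHL, HSD17B7, EBP, SC5D and DHCR7. They were taken by symbol from the 22587 genes of the deposited table, and all 9 had a row and passed the filter on low values. Their mRNA was measured by RNA-seq in HepG2 cells, an established line of human liver tumour cells, in 3 groups of 3 libraries: Gln added, Gln-deprived for 12 h and Gln-deprived for 24 h. In the labels the samples with Gln added carry GlutaMAX, a dipeptide that supplies Gln, as their treatment. The treatment protocol instead places it in the Gln-free medium of the deprivation experiment, so which cultures received it cannot be told apart from these sources. The medium was changed 24 h after seeding for Gln deprivation, and no collection time was given for the cells with Gln added. Time in culture and Gln deprivation therefore cannot be told apart. All groups are 1 cell line, and the labels do not say whether replicates were separate cultures, so p-values measure the spread between these libraries, which may be technical.

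Cholesterol is made in the endoplasmic reticulum, and hepatocytes are among the main cells that make it. Lanosterol has a methyl group at C14 and a pair at C4 that must be removed, and its double bonds must be moved or reduced. CYP51A1 removes the C14 methyl group, TM7SF2 or LBR reduces the double bond this leaves, and MSMO1, NSDHL and HSD17B7 remove the C4 methyl groups. EBP then moves the double bond of the B ring, SC5D adds another and DHCR7 reduces 7-dehydrocholesterol to cholesterol. Genes of this pathway are textbook targets of the SREBP transcription factors, which are released from the endoplasmic reticulum when sterols are low and bind sterol regulatory elements, often beside CCAAT and GC boxes.

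Values are FPKM, the fragments on a gene divided by its length in kilobases and scaled to the size of the library, so levels of different genes are compared per length. Each library held 29621270 to 36261546 fragments on genes, and 172 to 10990 of them fell on a single member. The first principal component held 68.3% of the variance. As a check of the label, all 10 hepatocyte markers were expressed, among them ALB (mean 3831 FPKM with Gln added) and AFP (313 FPKM). Their sum was 7563 to 7663 FPKM with Gln added, 6627 to 6698 after 12 h and 6401 to 6734 after 24 h. Summed fibroblast markers (4 of 5 with a row) stayed at or under 0.0352 FPKM and endothelial markers (3 of 5) at or under 0.366 FPKM in every library. Of 5 leukocyte markers, CD68 and CD14 had a row, and their sum was 37.4 to 37.7 FPKM with Gln added, 29.6 to 32.7 FPKM after 12 h and 22.2 to 26.9 FPKM after 24 h, nearly all of it CD68, a lysosomal protein that is not confined to leukocytes. The part of these shifts in the results was not tested, and in bulk RNA fewer cells of a type and less RNA per cell cannot be told apart.

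The promoters of 5 members are shown because these genes span the response, from the largest falls (HSD17B7, MSMO1 and DHCR7) through EBP to the smallest (LBR). Each is taken from the 250 bases before the RefSeq start site on GRCh38.p14, up to the first exon that GENCODE v44 gives for the gene, and is written 5′ to 3′ on the strand of the gene. Capitals mark CCAAT boxes (CCAAT, or ATTGG on the other strand) and stretches that match the sterol regulatory element TCACNCCAC, on either strand, with at most 1 mismatch in its fixed letters. The stretches are chr1:162790452-162790701 (plus strand) for HSD17B7, chr4:165327419-165327666 (plus) for MSMO1, chr11:71448436-71448643 (minus) for DHCR7, chrX:48521558-48521798 (plus) for EBP and chr1:225428926-225429071 (minus) for LBR.
HSD17B7: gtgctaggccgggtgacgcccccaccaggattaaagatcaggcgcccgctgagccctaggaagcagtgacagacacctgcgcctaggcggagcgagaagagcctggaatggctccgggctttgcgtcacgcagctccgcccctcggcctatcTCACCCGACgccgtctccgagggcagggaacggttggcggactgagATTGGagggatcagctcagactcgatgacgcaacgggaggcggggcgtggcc
MSMO1: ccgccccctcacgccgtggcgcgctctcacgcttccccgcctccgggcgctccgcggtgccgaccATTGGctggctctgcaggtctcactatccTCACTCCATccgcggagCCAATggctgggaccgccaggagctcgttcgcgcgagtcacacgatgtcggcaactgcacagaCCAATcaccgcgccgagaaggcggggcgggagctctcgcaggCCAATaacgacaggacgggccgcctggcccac
DHCR7: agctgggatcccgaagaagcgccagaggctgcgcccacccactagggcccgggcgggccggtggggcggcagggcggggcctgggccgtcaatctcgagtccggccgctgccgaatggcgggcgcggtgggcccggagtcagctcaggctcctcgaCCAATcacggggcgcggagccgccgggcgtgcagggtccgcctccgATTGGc
EBP: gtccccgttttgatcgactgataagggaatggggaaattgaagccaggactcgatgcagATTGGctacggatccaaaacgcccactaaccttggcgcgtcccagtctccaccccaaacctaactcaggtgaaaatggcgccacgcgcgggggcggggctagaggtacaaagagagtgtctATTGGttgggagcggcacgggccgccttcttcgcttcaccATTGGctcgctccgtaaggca
LBR: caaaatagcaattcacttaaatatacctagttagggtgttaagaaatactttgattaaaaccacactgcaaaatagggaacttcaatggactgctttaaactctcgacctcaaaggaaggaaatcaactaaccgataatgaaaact

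The LBR stretch stood apart from the other 4 in base composition, with 33.6% GC against 57.7% in EBP, 66.4% in HSD17B7, 69.8% in MSMO1 and 76.0% in DHCR7. It held none of the letters searched. The LBR stretch has 146 bases, against 250 in HSD17B7, 248 in MSMO1, 208 in DHCR7 and 241 in EBP. It leaves out the bases nearest the RefSeq start, which GENCODE v44 places in an exon of LBR. The GC values therefore cover unlike positions. MSMO1 held 4 CCAAT boxes, at positions -185, -139, -76 and -34 from its RefSeq start, and TCACTCCAT, 1 letter from the sterol regulatory element, at -156. HSD17B7 held TCACCCGAC, also 1 letter away, at -98 and a CCAAT box at -52. EBP had CCAAT boxes at -191, -70 and -30, and DHCR7 had boxes at -94 and -48.

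All 9 members were searched from 250 bases before to 50 after each start, on both strands, in 11 RefSeq windows, since DHCR7 and SC5D have 2 windows each and those of SC5D overlap. CCAAT was found in 7 of the 9 members (8 of the 11 windows), all but CYP51A1 and LBR. It was in 34.6% of all 35116 promoter windows. For CYP51A1, no base of the window lies before the first exon that GENCODE v44 gives for the gene. A missing match in CYP51A1 therefore says nothing of the bases before that exon. The exact sterol regulatory element TCACNCCAC was in none of the 9 and in 1.13% of all windows. With 1 mismatch allowed it was in 4 members (HSD17B7, MSMO1, SC5D and the upstream window of DHCR7). This was 5 of the 11 windows, against 24.5% of all windows. The GC box GGGCGG was in 7 members (8 of the 11 windows), all but LBR and NSDHL. It was in 45.0% of all windows, but in 66.5% of the 13652 windows of tested genes. CACGTG was in SC5D (2 of the 11 windows) and in no other member, and in 7.26% of all windows. In NSDHL, 2 of 5 CCAAT boxes overlapped, on opposite strands. These matches describe letters only, and no match says only that the letters are not in the window.

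To ask how the late pathway changed under Gln deprivation, each time was compared with Gln added, on log2(FPKM + 0.1) with limma and all 3 groups in 1 fit. Both comparisons share the libraries with Gln added. All 9 members were lower at 12 h and all 9 at 24 h, with adjusted p-values under 0.05 over the 11880 genes tested. Falls were frequent among all genes too: 31% of genes tested were called lower and 29.1% higher at 12 h (60.2% in either direction), and 31.7% lower and 33% higher at 24 h (64.7% in either direction). The median log2 fold change of the members was -1.36 at 12 h and -1.37 at 24 h, while the median over all genes tested was -0.019 at 12 h and 0.013 at 24 h. Member means were 23.6% (HSD17B7) to 84.1% (LBR) of the level with Gln added at 12 h and 24.6% (DHCR7) to 68.0% (LBR) at 24 h. For every member and at both times, each Gln-deprived library was below each library with Gln added (p = 0.1 in an exact two-sided permutation test, the smallest that 3 libraries against 3 allow). A fall without overlap was seen in 34.4% of genes tested at 12 h and in 34.1% at 24 h. The 9 genes together took 0.121% to 0.128% of fragments with Gln added, 0.0555% to 0.0598% after 12 h and 0.0512% to 0.0570% after 24 h.

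**Figure D1:**
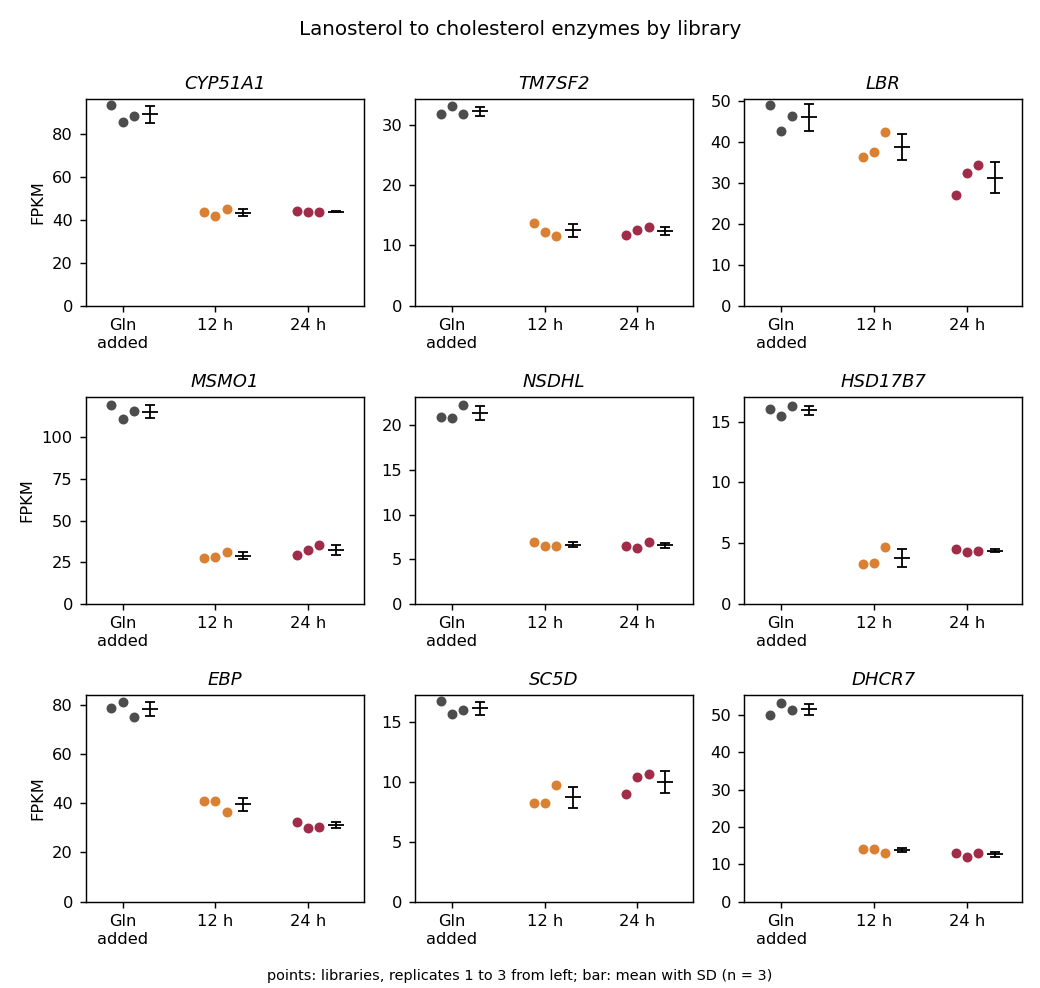
FPKM (vertical axes, from 0) of the 9 members in the 3 groups, with 1 point per library, replicates 1 to 3 from left, and the mean with its SD (n = 3) beside them. In each panel all 6 Gln-deprived libraries lie below the 3 libraries with Gln added, by the least in LBR.

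CYP51A1, lanosterol 14α-demethylase and the only cytochrome P450 of the route, lies on chromosome 7 from 92084987 to 92134803 (minus strand; GENCODE v44 on GRCh38, as for the positions that follow). It was at 93.5, 85.7 and 88.5 FPKM in the libraries with Gln added, at 43.6, 41.6 and 44.9 after 12 h and at 43.9, 43.7 and 43.5 after 24 h. The 6 Gln-deprived libraries lay close together, at about the same level at both times. The log2 fold change at 12 h was -1.04 (SE 0.041, adjusted p = 1.14e-08 from limma), against -1.03 at 24 h (SE 0.041, adjusted p = 7.16e-09), or 48.6% and 49.0% of the level with Gln added. Exons of unnamed protein-coding genes on the same strand cover 68.2% of its exonic bases. The best match among these genes covers 90.2% of its transcript at 100% identity. The pseudogenes CYP51A1P1 and CYP51A1P2 match 47.9% and 47.8% of its transcript at 96.6% and 97.0% identity. None of these copies has a row of its own here, so the level of CYP51A1 is uncertain.

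TM7SF2 and LBR encode both known sterol C14 reductases of human cells. TM7SF2 is an enzyme of the endoplasmic reticulum, while LBR, the lamin B receptor, sits in the inner nuclear membrane and also binds B-type lamins and heterochromatin. TM7SF2, on chromosome 11 from 65111845 to 65116384 (plus strand), was at 31.8, 33.1 and 31.9 FPKM with Gln added, at 13.7, 12.3 and 11.6 after 12 h and at 11.7, 12.5 and 13.0 after 24 h. Its Gln-deprived libraries overlapped between the times and all lay under 14 FPKM. TM7SF2 changed by -1.36 on the log2 scale at 12 h (SE 0.062, limma adjusted p = 3.02e-08) and by -1.37 at 24 h (adjusted p = 1.84e-08), to 38.8% and 38.5%.

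LBR, on chromosome 1 from 225401502 to 225428925 (minus strand), was at 49.0, 42.5 and 46.4 FPKM with Gln added, at 36.3, 37.5 and 42.3 after 12 h and at 27.1, 32.3 and 34.4 after 24 h. The groups only just missed each other at 12 h, where replicate 3 (42.3) was within 1 FPKM of replicate 2 with Gln added (42.5). The log2 fold change was -0.25 at 12 h (95% confidence interval -0.45 to -0.05, adjusted p = 0.0322 from limma) and -0.56 at 24 h (-0.76 to -0.36, adjusted p = 0.000246). At 12 h, 3181 of the 11880 genes tested fell further than LBR. The call at 12 h was lost without Gln-added replicate 1 (-0.20, adjusted p = 0.114), Gln-added replicate 3 (-0.24, 0.0789), 12 h replicate 1 (-0.20, 0.109) or 12 h replicate 2 (-0.23, 0.0917), and adjusted p was 0.00788 to 0.114 over 20 alternatives. The fall at 24 h was called in all 20, with adjusted p of at most 0.00168.

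Within a library, the ratio of TM7SF2 to LBR compares the reductases on 1 scale. It was 0.648, 0.779 and 0.687 with Gln added, 0.378, 0.327 and 0.274 at 12 h, and 0.432, 0.388 and 0.379 at 24 h. All ratios with Gln added lay above all others, and the groups at 12 h and 24 h came within 0.001 of each other without overlap (0.3781 and 0.3785). The log2 ratio differed by -1.12 at 12 h and by -0.82 at 24 h from Gln added, and by 0.30 between the times (24 h minus 12 h), or 0.18 without 12 h replicate 3. Each difference had p = 0.1 in a two-sided exact permutation test, the smallest possible, and 0.1 after adjustment over the 3 comparisons. Both genes were lower, so the ratio shows unequal change within the pair. The transcript of TM7SF2 holds 64.2% GC and that of LBR 37.8%. In 12 h replicates 1 and 3 the genes deviated from their group means in opposite directions (0.133 and -0.106 for TM7SF2, -0.090 and 0.132 for LBR). The part of the GC trends of the libraries, described below, in the ratio was not tested.

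**Figure D2:**
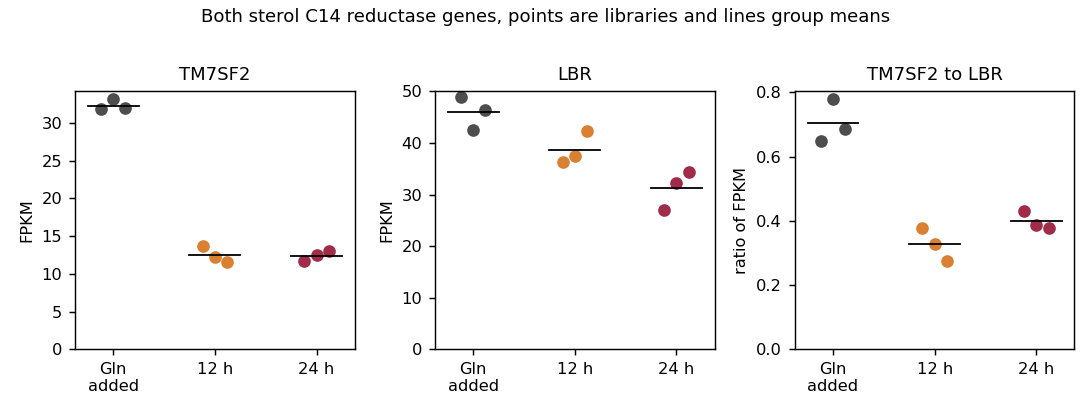
FPKM of TM7SF2 and LBR and the ratio of their FPKM (vertical axes, from 0) in each library, with lines at the group means. The mean ratio was 0.705 with Gln added, 0.327 after 12 h and 0.399 after 24 h, and LBR was lower at 24 h than at 12 h while TM7SF2 overlapped.

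The 3 C4 demethylation enzymes had 3 of the 4 lowest remaining levels at 12 h. MSMO1, the oxidase that starts on the C4 methyl groups, lies on chromosome 4 from 165327667 to 165343164 (plus strand). It was the most abundant member with Gln added, at 119, 111 and 116 FPKM, and fell to 27.4, 28.0 and 31.1 at 12 h and 29.1, 32.3 and 35.1 at 24 h. The times overlapped, and every Gln-deprived library was below 36 FPKM. The log2 fold change at 12 h was -2.00 (SE 0.068, adjusted p = 3.65e-09 from limma), against -1.85 at 24 h (adjusted p = 4.24e-09), a 4.01-fold and 3.59-fold lower level. At 12 h, 8 genes of the 11880 tested fell further.

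NSDHL, the dehydrogenase that removes the oxidised methyl group as carbon dioxide, lies on chromosome X from 152830967 to 152869729 (plus strand). It was at 21.0, 20.9 and 22.3 FPKM with Gln added, at 6.96, 6.46 and 6.49 after 12 h and at 6.48, 6.30 and 6.86 after 24 h. The 6 Gln-deprived values spanned less than 1 FPKM. NSDHL changed by -1.67 on the log2 scale at 12 h (SE 0.052, limma adjusted p = 1.91e-09) and by -1.69 at 24 h (adjusted p = 1.24e-09), to 31.0% and 30.6% of the level with Gln added.

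HSD17B7, the ketoreductase that completes each round, lies on chromosome 1 from 162790702 to 162812823 (plus strand). Its values were 16.1, 15.5 and 16.3 FPKM with Gln added, 3.31, 3.32 and 4.65 after 12 h and 4.52, 4.29 and 4.32 after 24 h. Replicate 3 at 12 h stood above the other 2 libraries of its time and above all libraries at 24 h. The log2 fold change at 12 h was -2.07 (SE 0.11, 95% confidence interval -2.31 to -1.83, adjusted p = 8.85e-08 from limma), against -1.84 at 24 h (SE 0.11, adjusted p = 1.3e-07). Its counts were the lowest of the members, 172 to 294 fragments per library at 12 h. The pseudogene HSD17B7P2 matches 1048 bases of its longest transcript, or 34.0% of 3087, at 95.7% identity. The FPKM of HSD17B7 rest on a length of 1754, so the share of the counted bases may differ. HSD17B7P2 has no row here, so how much of the level comes from HSD17B7 is uncertain.

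EBP, SC5D and DHCR7 act on the double bonds of the ring system, and they fell by different amounts. EBP, the sterol Δ8-Δ7 isomerase, lies on chromosome X from 48521799 to 48528716 (plus strand). Its libraries were at 78.7, 80.9 and 75.0 FPKM with Gln added, 41.1, 41.0 and 36.6 after 12 h and 32.4, 30.1 and 30.4 after 24 h. The 3 groups formed separate steps with no overlap between any of them. The log2 fold change at 12 h was -0.98 (SE 0.053, adjusted p = 1.04e-07 from limma), against -1.33 at 24 h (adjusted p = 6.67e-09), to 50.5% and 39.6%. Exons of an unnamed protein-coding gene on the same strand cover 36.4% of its exonic bases. That gene matches 57.1% of the EBP transcript at 100% identity and has no row here, so the level of EBP is uncertain as well.

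SC5D, the C5 desaturase, lies on chromosome 11 from 121292681 to 121313410 (plus strand). It was at 16.8, 15.7 and 16.0 FPKM with Gln added, 8.23, 8.24 and 9.74 after 12 h and 8.99, 10.4 and 10.7 after 24 h. After LBR it had the smallest fall at both times. The log2 fold change at 12 h was -0.88 (SE 0.079, adjusted p = 4.58e-06 from limma), against -0.69 at 24 h (adjusted p = 2.24e-05), to 54.1% and 62.0%.

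DHCR7, the last enzyme of the Kandutsch-Russell order of reactions and the one deficient in Smith-Lemli-Opitz syndrome, lies on chromosome 11 from 71428193 to 71452868 (minus strand). It was at 50.1, 53.2 and 51.2 FPKM with Gln added, 14.2, 14.2 and 13.1 after 12 h and 13.1, 11.8 and 13.0 after 24 h. DHCR7 changed by -1.89 on the log2 scale at 12 h (SE 0.052, limma adjusted p = 7.59e-10) and by -2.02 at 24 h (adjusted p = 3.48e-10), the largest fall of a member at 24 h. At each time 14 of the genes tested fell further.

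**Figure D3:**
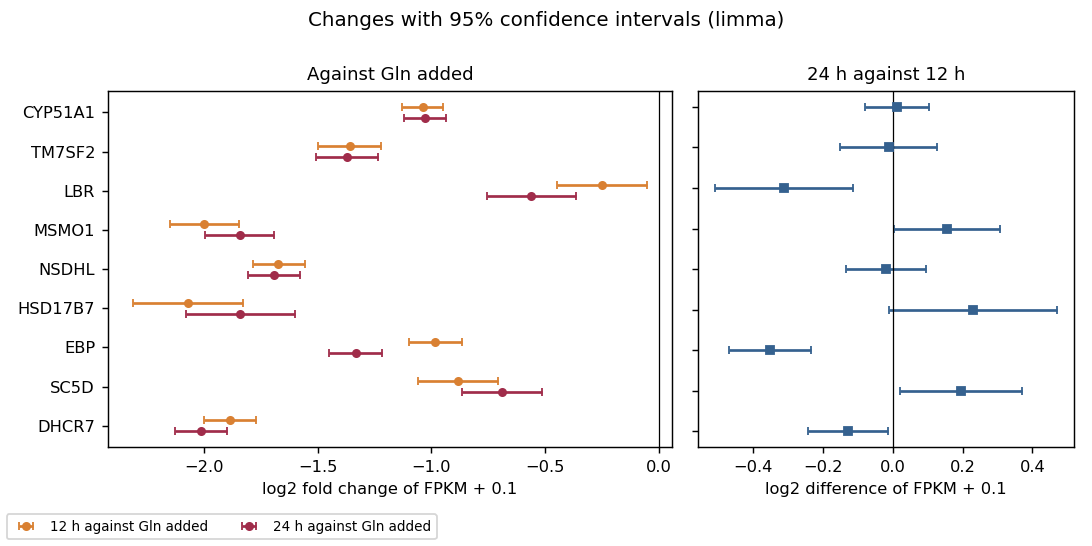
Log2 fold changes of FPKM + 0.1 from limma (horizontal axes) with 95% confidence intervals for the 9 members, against Gln added on the left and for 24 h against 12 h on the right, where positive values mean higher at 24 h. All 18 intervals on the left lie below 0, with LBR nearest to it, and on the right EBP (-0.35) and LBR (-0.31) lie lowest. The intervals of SC5D, MSMO1 and DHCR7 on the right also leave out 0, but are not adjusted over genes.

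The order of the levels changed with Gln deprivation because the members fell by different amounts. With Gln added, the order by mean FPKM was MSMO1 (116), CYP51A1 (89.2), EBP (78.2), DHCR7 (51.5), LBR (46.0), TM7SF2 (32.3), NSDHL (21.4), SC5D (16.2) and HSD17B7 (15.9). The libraries of neighbours in this order overlapped for SC5D and HSD17B7 only. At 12 h CYP51A1 (43.4) came first, then EBP (39.5) and LBR (38.7), which overlapped, and then MSMO1 (28.8). DHCR7 (13.8) and TM7SF2 (12.5) overlapped, followed by SC5D (8.74), NSDHL (6.64) and HSD17B7 (3.76). At 24 h CYP51A1 (43.7) was again first, and MSMO1 (32.2), LBR (31.3) and EBP (31.0) overlapped. DHCR7 (12.7) and TM7SF2 (12.4) overlapped again, above SC5D (10.0), NSDHL (6.55) and HSD17B7 (4.38). LBR had the fifth highest mean with Gln added, and at both times of Gln deprivation its libraries overlapped those of the member ranked just below CYP51A1.

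Between the times, the levels of most members were close. EBP and LBR were lower at 24 h than at 12 h, and the other 7 did not pass the test. This is 2 of 9 members, near the background, since 20.1% of genes tested were called between the times, 10.5% lower and 9.57% higher. EBP had a log2 difference of -0.35 (24 h minus 12 h, 95% confidence interval -0.47 to -0.23, adjusted p = 0.00125 from limma), with no overlap between the times. LBR had a log2 difference of -0.31 (-0.51 to -0.11, adjusted p = 0.0331), also with no overlap. For LBR the call was lost without 12 h replicate 2 (-0.33, adjusted p = 0.0657), 12 h replicate 3 (-0.24, 0.0967) or 24 h replicate 1 (-0.21, 0.0684), and adjusted p was 0.00223 to 0.0967 over 20 alternatives. For EBP it was at most 0.0076.

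For CYP51A1 the interval of the difference was -0.08 to 0.10, for NSDHL -0.13 to 0.10 and for TM7SF2 -0.15 to 0.13, so a difference within these bounds was not detectable here. HSD17B7 had a log2 difference of 0.23 (24 h minus 12 h, adjusted p = 0.165 from limma), SC5D 0.20 (0.11), MSMO1 0.16 (0.138) and DHCR7 -0.13 (0.111). Single libraries decided 3 of these. Without 12 h replicate 3, HSD17B7 was called higher at 24 h (0.39, adjusted p = 0.00112), and SC5D too (0.28, 0.0269). Without 24 h replicate 1, SC5D (0.27, 0.0274) and MSMO1 (0.23, 0.026) were called higher. The differences without a call also moved, to 0.15 for HSD17B7 without 12 h replicate 1 or 2, to 0.09 for MSMO1 without 24 h replicate 3 and to -0.08 for DHCR7 without 24 h replicate 2.

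Within groups, members of low and of high GC deviated in opposite directions in some libraries. The transcripts of CYP51A1, LBR, MSMO1, HSD17B7 and SC5D hold 36.9% to 41.7% GC, and those of TM7SF2, NSDHL, EBP and DHCR7 hold 49.6% to 64.2%. In 12 h replicate 3, all 5 members of low GC were at their highest of the 3 libraries, by 0.05 (CYP51A1) to 0.32 (HSD17B7) above the group mean on the log2 scale. All 4 members of high GC were below their mean there. All 4 were at their highest in 12 h replicate 1, where 4 of the 5 of low GC were at their lowest. The tested genes as a whole showed the same split in 12 h replicate 3, with a median deviation of 0.074 in the tertile of genes lowest in GC and -0.049 in the highest tertile. In Gln added replicate 2, all 5 members of low GC were at their lowest and 3 of the 4 of high GC at their highest. The median deviations over all tested genes in that library were -0.0275 at low and 0.0258 at high GC. At 24 h a split was seen in replicate 2 only, and it was not complete. There 4 of the 5 members of low GC were above their mean, and 3 of the 4 of high GC were at their lowest. The median deviations over all tested genes in that library were 0.0196 at low and -0.0259 at high GC. In 24 h replicate 1, LBR (-0.20), SC5D (-0.15) and MSMO1 (-0.14) were at their lowest, CYP51A1 (0.0070) and HSD17B7 (0.047) were at their highest, and 2 of the 4 members of high GC were above their mean. There the median deviations over all tested genes were -0.043 at low and 0.053 at high GC. With length and GC trends of each library removed, an alternative chosen after seeing the data, all 9 members were called lower at both times. The same alternative called 5 members between the times, LBR (-0.32), EBP (-0.35) and DHCR7 (-0.14) lower and MSMO1 (0.17) and SC5D (0.18) higher at 24 h.

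**Figure D4:**
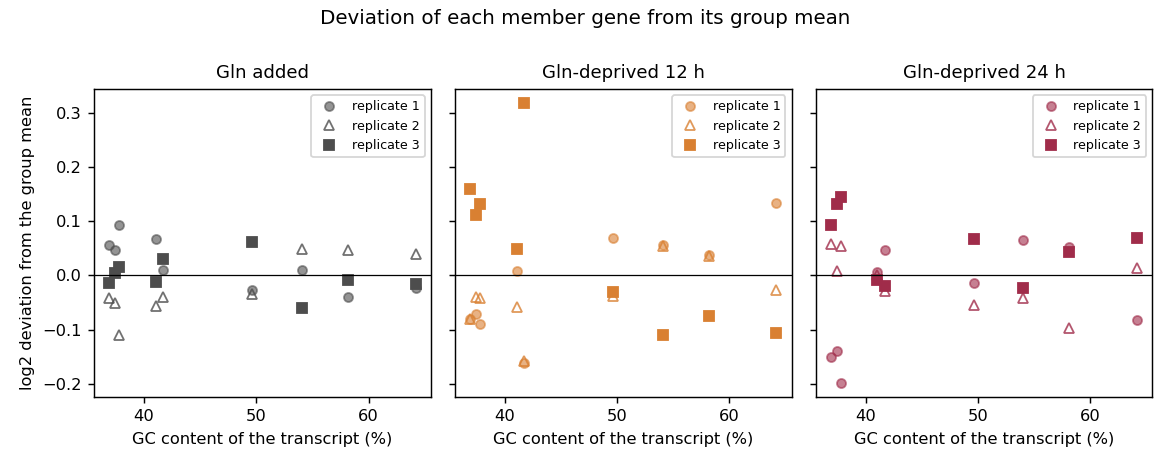
Log2 deviation of each member from its group mean (vertical axis) against the GC content of its transcript in percent (horizontal axis), with 1 panel per group and 1 symbol per replicate. In 12 h replicate 3 (squares, middle panel) the 5 members under 42% GC lie above 0 and the 4 others below it.

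Across the 9 libraries, each member was compared with the mean standardised profile of the other members, as a description in which the difference between groups carries most of the correlation. Pearson's r was 0.994 for CYP51A1, 0.993 for NSDHL, 0.991 for MSMO1, 0.990 for DHCR7, 0.987 for TM7SF2 and 0.975 for HSD17B7. It was lower for EBP (0.954) and SC5D (0.941) and lowest for LBR (0.761). Of 11490 other tested genes compared, 791 had an r over 0.95 with the mean profile of all members over the same 9 libraries. The 5 most alike were MASTL, a mitotic kinase (r = 0.9989), HELLS, a chromatin remodeller (0.9988), GSTA4, a glutathione transferase (0.9980), ANXA4, an annexin (0.9974), and LIPA, the lysosomal acid lipase that frees cholesterol from its esters (0.9972). The mean FPKM of MASTL was 6.84 with Gln added, 4.09 after 12 h and 3.87 after 24 h, and that of LIPA was 94.4, 58.4 and 58.5 in the same groups.

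Upstream of lanosterol, 11 of the 12 genes of the mevalonate and squalene arm were called lower at 12 h and 11 at 24 h, against the 31% and 31.7% of all genes given above. The median log2 fold change of this list was -1.77 at 12 h and -1.75 at 24 h. LSS, the cyclase that makes lanosterol, was at -2.19 and -2.16, and MVD, which decarboxylates diphosphomevalonate, had the largest fall (-2.31 and -2.21). PMVK, the phosphomevalonate kinase, fell least of those called (-0.57 and -0.40). GGPS1, which makes geranylgeranyl diphosphate for protein prenylation and lies on a side branch, was not called (-0.03, adjusted p = 0.676, and -0.06, adjusted p = 0.333 from limma), and its sign turned at 12 h with rescaled totals (0.0066) and at both times with length and GC trends removed (0.028 and 0.017).

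Of 8 partners of the late enzymes, 6 were lower and 2 higher at each time, with a median log2 fold change of -0.47 at 12 h and -0.58 at 24 h. Over all tested genes, 31% were lower and 29.1% higher at 12 h, and 31.7% and 33% at 24 h. ERG28, a scaffold of the C4 demethylation enzymes, fell (-1.18 and -1.33). POR, which passes electrons to CYP51A1 and other P450 enzymes, rose from 60.4 FPKM to 104 at 12 h and 88.2 at 24 h (log2 fold change 0.78 and 0.55, adjusted p = 2.19e-07 and 2.06e-06). FAXDC2, a homologue in the hydroxylase family of MSMO1 and SC5D, rose by 0.41 and 0.37. The cytochrome b5 genes that serve MSMO1 and SC5D fell, with log2 fold changes of -0.63 and -0.87 for CYB5A and -0.76 and -0.63 for CYB5B.

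**Figure D5:**
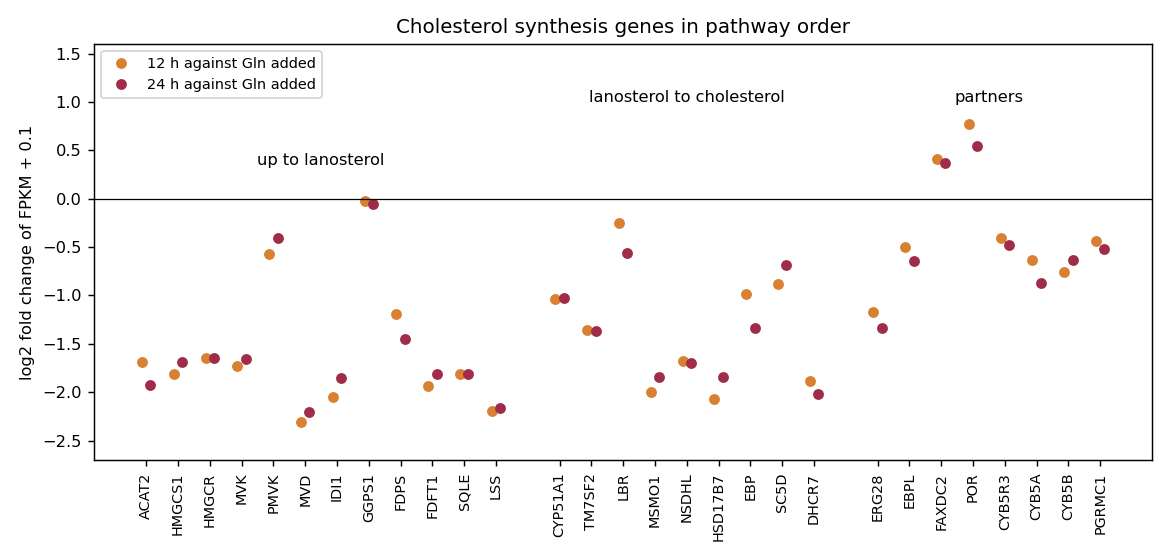
Log2 fold change of FPKM + 0.1 from limma (vertical axis) at 12 h and 24 h against Gln added for genes up to lanosterol, the 9 members, and the partners of the late enzymes, in pathway order. GGPS1 lies near 0, POR and FAXDC2 above it and the other genes below it.

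Among 10 genes of SREBP control and sterol transport, INSIG1 was not analysed here. Of the other 9, 5 were lower and 2 higher at 12 h, and 5 were lower and 3 higher at 24 h, with medians of -0.13 and -0.18, so 7 and 8 of 9 were called against 60.2% and 64.7% of all tested genes. Of the calls, that of SREBF1 at 12 h (-0.13, adjusted p = 0.0425) was lost in 10 of 20 alternatives (0.0519 to 0.141), and that of INSIG2 at 24 h in 3, which included those without Gln added replicate 2 (0.0889) and without 24 h replicate 3 (0.0929). SREBF2, which encodes the SREBP best known for sterol synthesis genes, fell (-0.65 and -0.82). STARD4, a sterol carrier, fell most at 12 h (-1.56 and -1.38) and TMEM97, a membrane protein that binds NPC1, most at 24 h (-1.26 and -1.44). MBTPS1, the site-1 protease of SREBP processing, rose by 0.43 and 0.57, and MBTPS2, the site-2 protease, was not called (0.02 and 0.05), but was with length and GC trends removed (0.09 at both times, adjusted p = 0.0416 and 0.0383).

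Of 12 genes of sterol storage, export and oxidation, ABCG1 and CH25H were not analysed here. The other 10 were split, with 5 lower, 2 higher and 3 not called at 12 h and 7 lower and 3 higher at 24 h (medians -0.23 and -0.27). The 7 of 10 called at 12 h were near the 60.2% of all tested genes, and all 10 were called at 24 h, against 64.7%. CYP7A1, the rate-limiting enzyme of bile acid synthesis, fell (-0.91 and -0.72) from a mean of 2.17 FPKM. ABCG8, which forms a sterol exporter with ABCG5, had the largest fall at 24 h (-0.63 and -0.83). ABCG5 was not called at 12 h (-0.02) and rose at 24 h (0.24). NPC2, which hands cholesterol to NPC1, was at -0.08 without a call at 12 h and fell at 24 h (-0.25). CYP27A1, a sterol hydroxylase of bile acid synthesis, was at 0.09 without a call at 12 h, called higher there in 4 alternatives, and fell at 24 h (-0.15). SOAT2, which esterifies cholesterol in hepatocytes, rose by 0.40 and 0.43, and NPC1, which exports cholesterol from lysosomes, by 0.35 and 0.41.

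Because LBR is also a protein of the nuclear envelope, 10 genes of the nuclear lamina and inner nuclear membrane were counted. At 12 h 5 were lower, 2 higher and 3 not called, and at 24 h 7 were lower, 2 higher and 1 not called, with a median of -0.13 at both times. The share called was near the 60.2% of all tested genes at 12 h, and was 9 of 10 against 64.7% at 24 h. The 7 lower at 24 h became 4 with rescaled totals and without Gln added replicate 1, Gln added replicate 2 or 24 h replicate 3, with LMNA, EMD and SUN1 losing their calls each time. SUN2, called higher at 24 h, lost its call with length and GC trends removed (0.03, adjusted p = 0.388). LMNB1, which encodes lamin B1, a binding partner of LBR, was at a mean of 66.0 FPKM with Gln added, 42.3 after 12 h and 28.7 after 24 h. It was lower at 24 h than at 12 h, by a difference of -0.56 on the log2 scale (adjusted p = 8.58e-06 from limma). TMPO, another lamin-binding protein, fell (-0.48 and -0.69), while LEMD2 rose by 0.73 and 0.96.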

How the data were processed

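RNA from 9 HepG2 samples was sequenced, 3 per group. According to the methods, the authors aligned paired reads to GRCh38 with STAR and used DESeq2, and the submitters' processing notes name HTSeq and R 3.2.0. The annotation used for counting is not given in the sources used here. The labels name another library kit than the methods, so it is unknown whether counting used strand. The deposited values are FPKM, with no further scaling between libraries stated.

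Because FPKM are not counts, groups were compared on log2(FPKM + 0.1) with limma 3.58.1 (R 4.3.3, lmFit, eBayes with a trend, two-sided). The fit held all 3 groups and the 11880 genes that averaged at least 0.5 FPKM, with Benjamini-Hochberg adjustment (threshold 0.05). On this scale fold changes of low genes are understated. Whole fragments, recovered from the steps of the values for 100% of the 22587 genes (within 0.02 of a fragment), gave depths and a voom alternative. In simulated data 200 of 11880 genes were changed, each by 1 on the log2 scale, and 190 of them were called, with 5 false calls. The data differ from this setting, with 60.2% of genes called at 12 h and changes as small as -0.25 (LBR at 12 h). The simulation does not cover such calls. Every pair of replicates differed beyond sampling noise (chi-square per degree of freedom 2.88 to 14.4).

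The members and gene lists were chosen with earlier results of these data known, and lists are given as counts with no test. All members were named, and from each other list the largest fall, the largest rise or smallest fall, and genes that were not called or went the other way, up to 6 a list. Genes whose calls changed under an alternative were named besides, after their values were seen. Some genes of these lists are not reported here. Genes of like pattern were the 5 with the highest r, leaving out names that start with LOC. Alternatives were pseudocounts of 1 and 0.01, other filters, rescaled totals, median-ratio scaling, 2 groups per fit, a replicate block, no trend, voom, each library left out, and length and GC trends removed (splines with 4 degrees of freedom, for the 96.0% of genes with both values). Positions come from GENCODE v44, promoters from RefSeq (GRCh38.p14, all 9 members matched), copies from blastn 2.17.0, and figures from matplotlib 3.10.9. The transcript used for GC, length trends and copies was the longest that GENCODE v44 gives for the gene.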

Additional observations from a re-analysis of the deposited data

Results flagged for a closer look

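EBP and LBR differed between the times of Gln deprivation by the test of the difference itself, while both were below Gln added at each time. This is 2 of 9 members, near the 20.1% of genes tested that were called between the times. EBP had a log2 difference of -0.35 (24 h minus 12 h, adjusted p = 0.00125 from limma), with means of 39.5 FPKM at 12 h and 31.0 at 24 h. LBR had a difference of -0.31 (adjusted p = 0.0331 from limma), with means of 38.7 and 31.3 FPKM. Its call was lost in 6 of the 20 alternatives, with limma adjusted p of up to 0.0967. CD68, which was listed as a leukocyte marker but is a lysosomal protein of many cells, went the same way (29.6 and 22.9 FPKM). CD14, the other leukocyte marker with a row, did not (1.11 and 1.32 FPKM, adjusted p = 0.448 from limma). The part of either marker in the differences of EBP and LBR was not tested.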

How the results depend on the processing

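Over 20 alternatives, all 180 values of the members at 24 h against Gln added kept their direction and their call. At 12 h 173 of 180 did, and the other 7 were LBR, whose log2 fold change stayed between -0.32 and -0.19. Its adjusted p was 0.0853 with no filter, 0.0666 with rescaled totals (-0.22) and 0.0588 without a trend, beside the 4 omitted libraries named above. Between the times, 159 of 180 values were unchanged in call and direction. The count of members called there, 2, was 1 with no filter, with only the 2 groups compared and without a trend (LBR at adjusted p = 0.0917, 0.0561 and 0.0654), and 1 to 3 with a library left out. It was 5 with length and GC trends removed. Differences near 0 changed sign without being called: TM7SF2 was at 0.0021 with rescaled totals and at 0.054 and 0.030 without replicate 1 at 12 h or at 24 h, CYP51A1 at -0.0082 with median-ratio scaling and -0.017 without 12 h replicate 2, and NSDHL at 0.012 with trends removed and 0.015 and 0.0074 without 12 h replicate 1 or 24 h replicate 2. With a library left out, TM7SF2 ranged from -0.065 to 0.054, CYP51A1 from -0.017 to 0.037 and NSDHL from -0.054 to 0.015. The cause was not tested. Numbers of genes called stayed within 1.5 times, at 6455 to 7434, 7034 to 7811 and 1652 to 2515 with a library left out. Same-numbered replicates did not deviate together throughout (correlations -0.136 to 0.283). A replicate block gave 7341, 7802 and 2586 genes and 9, 9 and 2 members, so that it changed no call of a member. With 3 libraries a group, exact tests cannot go below 0.1, and HSD17B7, the member with the fewest fragments, is the least precise.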
